A study of Mus musculus with 6 samples.

Results

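The transcription factor p53 and 8 of its direct target genes were measured across 3 lines of CT26, a mouse colon carcinoma line. The genes were chosen by name, as Trp53 itself and the targets Cdkn1a, Mdm2, Ccng1, Bax, Bbc3, Eda2r, Phlda3 and Trp53inp1, and all 9 were found among the 53801 genes listed. All 3 lines carried a retroviral barcode library and had passed through Balb/c mice. Cells from the tumours were then selected in culture with puromycin, and no treatment is stated for the cultures that gave the RNA. The parental line was a bulk population recovered from mice, per the study's methods. Line B04 and line B64 each grew from 1 cell, so each is a single clone. They carried barcodes that had been enriched in tumours under anti-PD1 and, in a separate cohort, under anti-CTLA4. The study also transplanted each line and gave both antibodies together, and reported more resistance in B04 and B64 than in the parental line. Both are therefore called resistant to immune checkpoint blockade (ICB). The study's discussion states that the clones were isolated after ICB. It says that their changes may have been present before ICB or induced by it. Every line had 2 libraries, replicates A and B. The sample titles speak of tumours whereas the methods describe cultured lines. No label says that replicates came from separate cultures, so p-values measure only the spread between these libraries, which may be technical.

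The p53 protein is held at a low level by Mdm2, a ubiquitin ligase that marks it for degradation and is itself a p53 target, so that the pair forms a feedback loop. Damage and other stresses stabilise the protein, which then binds DNA and turns on genes for cell cycle arrest, cell death and repair. Its activity is set largely at the protein level, which RNA-seq does not measure.

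The p53 protein binds a pair of 10-base repeats, and the proximal promoters were searched for these letters to show the DNA that the named genes carry. RefSeq promoter windows (GRCm38.p6) were at hand for 8 of the 9 genes, Trp53inp1 having no entry, and the 250 bases before each start were searched on both strands. A perfect match to the 10-base p53 consensus was found for 5 genes, Cdkn1a, Ccng1, Bax, Mdm2 and Trp53. Of all 32851 promoter windows, 7.13% held such a match. The longer site, 2 adjacent repeats (20 bases) with at most 2 mismatches, was found for Cdkn1a and Ccng1 and in 0.271% of all windows. Cdkn1a also had a window at a further start, chr17:29093519-29093818, and no match was found in it. The position given for Cdkn1a below is counted from its upstream start. In the lines below, capitals mark the match, and 10 flanking bases on either side are in lower case. Each sequence runs 5′ to 3′ on the strand of its gene.
Cdkn1a, chr17:29090918-29090957, + strand, 51 to 32 bases before the start, 1 mismatch: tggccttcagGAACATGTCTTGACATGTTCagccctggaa
Ccng1, chr11:40755452-40755491, - strand, 195 to 176 bases before the start, 1 mismatch: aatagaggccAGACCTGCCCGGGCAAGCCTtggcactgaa
Mdm2, chr10:117710925-117710954, - strand, 186 to 177 bases before the start: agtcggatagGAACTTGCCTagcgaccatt
Bax, chr7:45467080-45467109, - strand, 201 to 192 bases before the start: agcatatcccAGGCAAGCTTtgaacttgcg
Trp53, chr11:69580274-69580303, + strand, 75 to 66 bases before the start: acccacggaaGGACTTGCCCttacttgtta
A match describes the letters of the window and does not show binding. In the windows of Phlda3, Bbc3 and Eda2r these letters were not found, which says nothing about p53 at those genes, since many p53 sites lie outside such a window.

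Library totals ranged from 19409204 to 23472012 expected counts, and 10970 to 11208 genes reached a TPM (a level scaled by gene length and library total) of 1. A measure of fragment length was 271.8 to 277.3 bases in both parental libraries and B04 replicate A, the long class, and 220.8 to 246.2 bases in B04 replicate B and both B64 libraries, the short class. Line and fragment class cannot be told apart between B64 and the parental line. The leukocyte markers summed to 36.7 to 40.3 TPM in B64 and to 10.5 to 12.2 in the other 4 libraries, through Cd68, while 5 of the 8, Ptprc among them, were at 3 counts or fewer everywhere. All 4 endothelial markers were at that floor in every library. Of 8 colon epithelium markers, Epcam, Cdh1, Krt19 and Vil1 were at the floor in all libraries. The others, led by Krt18 and Krt20, summed to 45.7 to 48.2 TPM in B64 and to 22.4 to 25.4 in the other 4 libraries. The fibroblast markers, led by Pdgfrb, summed to 12 to 12.4 TPM in B04, 10.4 to 10.8 in the parental line and 8.33 to 9.83 in B64, with Lum at the floor. The erythroid markers summed to 2.13 to 2.3 TPM in B64 and to 0 to 1.84 in the other 4 libraries. Of these 4 markers, 3 were at the floor in every library, Hba-a1, Hbb-bs and Hbb-bt. The part of these cells or markers in the results below was not tested. In bulk RNA, fewer cells with a transcript and less of it per cell cannot be told apart.

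All 9 genes were expressed in every library. On the TPM scale, Bax was the most abundant at 524 ± 20.2 in the parental line, 565 ± 20.9 in B04 and 542 ± 26.2 in B64 (mean ± SD, n = 2 libraries), and 97.6% of expressed genes had a lower mean. Cdkn1a followed at 247 ± 3.13, 231 ± 13.2 and 308 ± 0.622 TPM in the same order of lines. Trp53 was at 138 ± 2.51, 156 ± 2.35 and 139 ± 1.35 TPM and Phlda3 at 135 ± 2.26, 152 ± 4.91 and 155 ± 0.834, so their levels were alike and their ranges over the 6 libraries overlapped. Mdm2 and Ccng1 came next, with 79.1 ± 6.43 and 60.5 ± 5.57 TPM in the parental line. Bbc3 was at 37 ± 1.8 TPM in the parental line and Eda2r at 15.9 ± 2.16. Trp53inp1 was the lowest, at 5.06 ± 1.2, 6.34 ± 0.955 and 8 ± 1.22 TPM. These levels order the genes within a line. Differences between lines are given below on counts normalised by DESeq2 size factors, since TPM also depends on the transcript length assigned to a gene in each library.

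**Figure D1:**
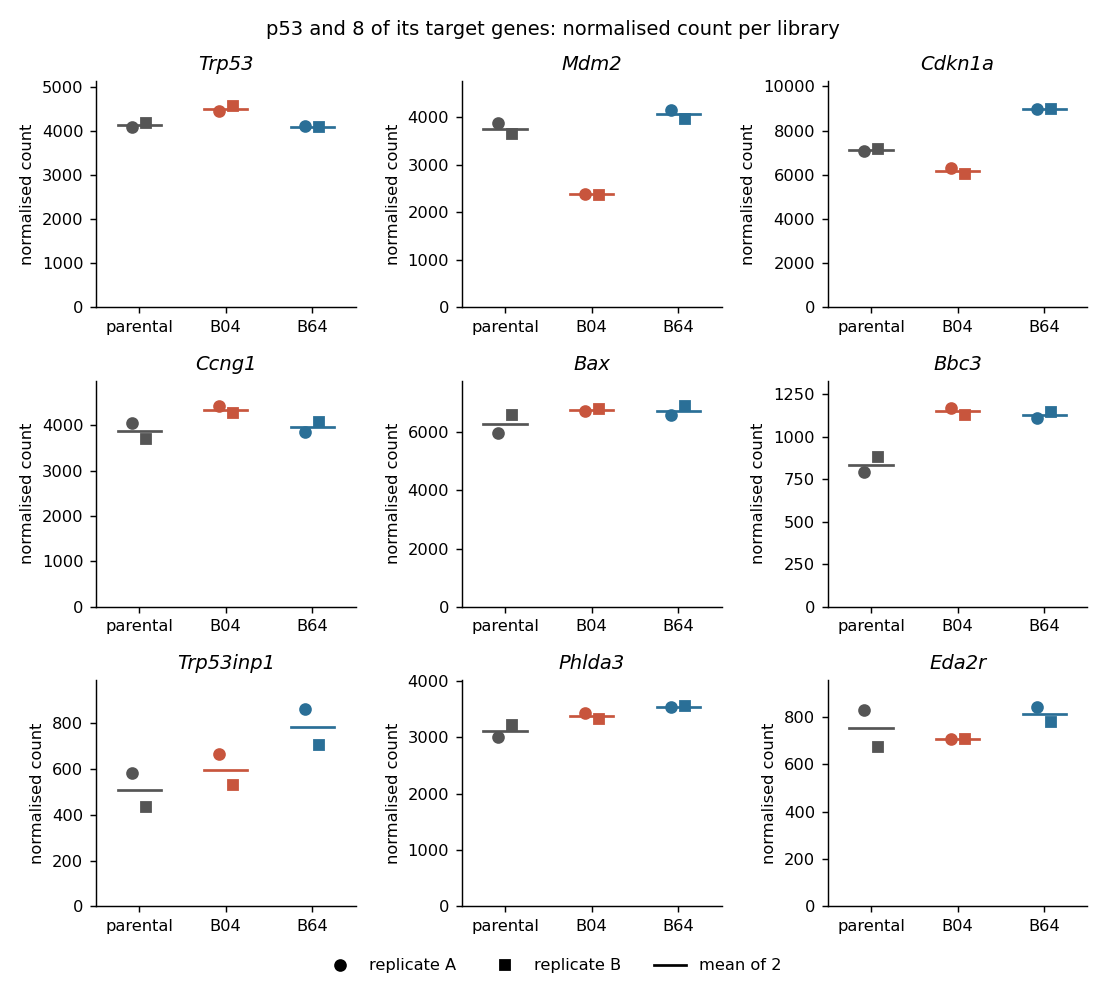
Normalised counts of the 9 genes in each of the 6 libraries, 1 panel a gene, with circles for replicate A, squares for replicate B and a line at the mean of the 2 libraries of each line (horizontal axis). Mdm2 sits at 2378 and 2365 in B04 against 3867 and 3644 in the parental line, and Bbc3 is higher in all 4 clone libraries than in both parental ones.

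Trp53 (ENSMUSG00000059552, GRCm38 chr11:69580359-69591873, + strand, protein coding), which encodes p53, was at 4077 and 4168 normalised counts in parental A and B, 4446 and 4553 in B04 and 4107 and 4077 in B64. The B04 libraries lay above the other 4, while both B64 libraries lay within the parental range. In neither clone did the difference from the parental line pass the threshold, an adjusted p under 0.05 in the Wald test of DESeq2. The log2 fold change was 0.13 in B04 (95% interval 0.01 to 0.25, DESeq2 adjusted p = 0.13) and -0.01 in B64 (-0.13 to 0.11, adjusted p = 0.953). Set directly against B04, B64 was at -0.14 (-0.26 to -0.02, DESeq2 adjusted p = 0.0939), which reached 0.045 with the edgeR test and passed in no other of the 16 alternatives (up to 0.394). The processed pseudogene Trp53-ps had 0 counts in all libraries, so no reads were assigned to that copy.

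The targets did not move together. In B04, 3 of the 9 genes passed the threshold, against 24.1% of all 13218 genes tested, with 1 higher and 2 lower, against 11.2% and 12.9% by direction. In B64, 4 of 9 passed, against a background of 16.3%, and all 4 were higher, against 8.87%. Set directly against each other, the clones differed in 2 of the 9 genes, against 24.3% of all genes tested, both higher in B64, against 13.1%. The median log2 fold change of the 9 genes was 0.12 in B04, 0.11 in B64 and 0.07 in B64 against B04, where it was 0.00 over all tested genes in each comparison. Both clones are compared with the same parental libraries, so their values stand side by side here and their likeness was not tested.

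**Figure D2:**
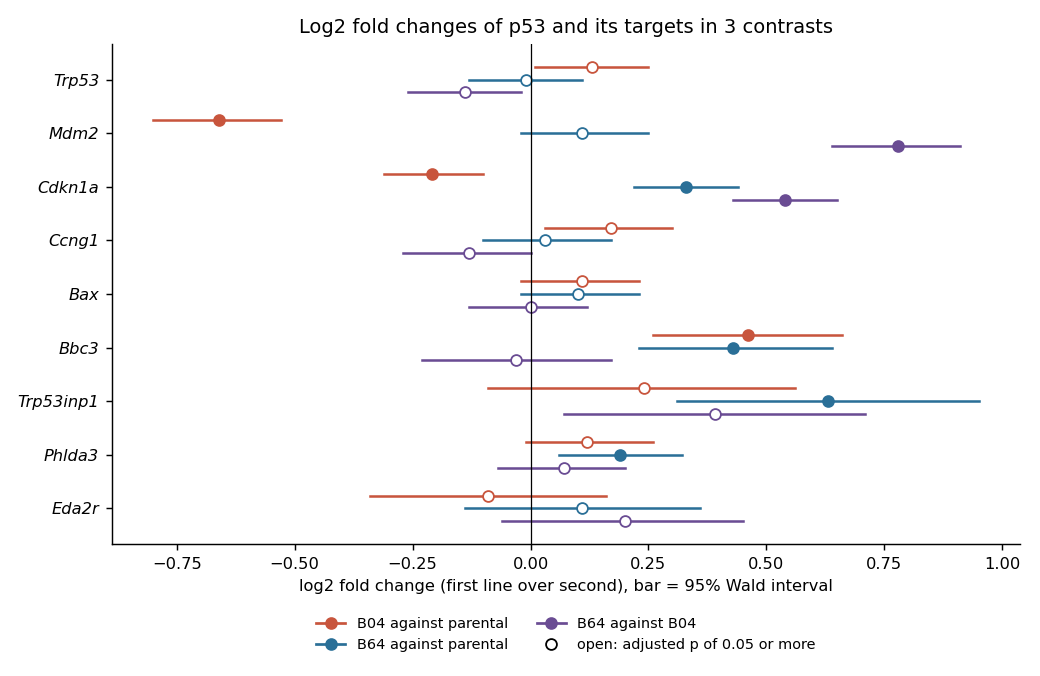
Log2 fold change of each of the 9 genes (horizontal axis) in B04 against the parental line, B64 against the parental line and B64 against B04, with bars for the 95% Wald interval and filled points for an adjusted p under 0.05 with DESeq2. Mdm2 lies at -0.66 in B04 and 0.11 in B64, and Bbc3 lies at 0.46 and 0.43.

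Mdm2 (ENSMUSG00000020184, chr10:117688875-117710758, - strand), the negative regulator of p53, showed the largest difference of the 9 genes. It was at 3867 and 3644 normalised counts in parental A and B, 2378 and 2365 in B04 and 4158 and 3959 in B64. The 2 B04 libraries were the lowest and the 3 lines did not overlap. In B04 it fell to 0.631 of the parental level, log2 -0.66 (SE 0.07, DESeq2 adjusted p = 1.12e-19). In B64 the difference from the parental line was 0.11 (95% interval -0.02 to 0.25, DESeq2 adjusted p = 0.31). Set directly, B64 was 1.71-fold above B04 (log2 0.78, SE 0.07, DESeq2 adjusted p = 7.11e-27). Both calls passed in all 16 alternatives, with a log2 fold change between -0.71 and -0.58 in B04. Mdm2 also lay lower in B04 within a fragment class, at -0.66 in the long-fragment B04 library against the parental libraries. The mean transcript length that RSEM assigned to Mdm2 ranged from 2544 to 2785 bases over the libraries, and its 2 extremes were both B04 libraries.

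Cdkn1a (ENSMUSG00000023067, chr17:29090976-29100727, + strand) encodes p21, which inhibits cyclin-dependent kinases and carries much of the arrest after p53 activation. It was at 7082 and 7182 normalised counts in parental A and B, 6324 and 6045 in B04 and 8962 and 9000 in B64. The 3 lines did not overlap, with B04 lowest and B64 highest. In B64 it rose 1.26-fold over the parental line (log2 0.33, SE 0.06, DESeq2 adjusted p = 7.61e-08) and was 1.45-fold above B04 (log2 0.54, SE 0.06, adjusted p = 2.76e-20), and both passed in all 16 alternatives. In B04 it fell to 0.867 of the parental level (log2 -0.21, SE 0.06, DESeq2 adjusted p = 0.00178). This smaller fall did not pass without B04 replicate B (-0.17, DESeq2 adjusted p = 0.0946) or with fragment class as a block (-0.17, adjusted p = 0.125), and it passed in 11 of 16 alternatives (adjusted p from 0.00183 to 0.332).

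Ccng1 (ENSMUSG00000020326, chr11:40748552-40755311, - strand) encodes cyclin G1, an atypical cyclin that acts in the feedback on p53. Its normalised counts were 4039 and 3702 in parental A and B, 4412 and 4267 in B04 and 3852 and 4070 in B64. The B04 libraries were the highest and B64 overlapped the parental line. Ccng1 passed in no comparison at the stated settings, with a log2 fold change of 0.17 in B04 (DESeq2 adjusted p = 0.0654), 0.03 in B64 (adjusted p = 0.838) and -0.13 between the clones (adjusted p = 0.169). In B04 it passed in 2 of 16 alternatives, edgeR (adjusted p = 0.0402) and a minimum mean count of 10 (DESeq2 adjusted p = 0.0493), of a range up to 0.512.

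Genes for cell death were measured next. Bbc3 (ENSMUSG00000002083, chr7:16308393-16318205, + strand) encodes Puma, a BH3-only protein that releases Bax from its inhibitors. It was at 789 and 877 normalised counts in parental A and B, 1167 and 1127 in B04 and 1107 and 1143 in B64. All 4 clone libraries lay above both parental libraries, and the clones overlapped each other. Bbc3 rose 1.38-fold in B04 (log2 0.46, SE 0.10, DESeq2 adjusted p = 0.0001), in all 16 alternatives, and 1.35-fold in B64 (log2 0.43, SE 0.10, DESeq2 adjusted p = 0.000513). The call in B64 was lost without parental replicate A (0.36, DESeq2 adjusted p = 0.0885), without B64 replicate B (0.41, adjusted p = 0.0612) and with fragment class as a block (0.48, adjusted p = 0.365). It passed in 13 of 16 alternatives (adjusted p from 0.000141 to 0.365). Between the clones the log2 difference was -0.03 (95% interval -0.23 to 0.17, DESeq2 adjusted p = 0.902). In the long-fragment B04 library Bbc3 was at 0.49 above the parental libraries on the log2 scale. The mean transcript length assigned to Bbc3 spanned 1410 to 1421 bases for long fragments against 1303 to 1328 bases for short ones, which moves its TPM and not its counts.

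Bax (ENSMUSG00000003873, chr7:45461697-45466898, - strand), the pore-forming effector of mitochondrial death, was at 5981 and 6601 normalised counts in parental A and B, 6744 and 6791 in B04 and 6600 and 6900 in B64. Parental replicate A was the lowest library, and the other 5 lay close together. No comparison passed, with log2 fold changes of 0.11 in B04 (95% interval -0.02 to 0.23, DESeq2 adjusted p = 0.254) and 0.10 in B64 (adjusted p = 0.33). The overlapping gene model Gm45808 had 0 counts in every library.

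Trp53inp1 (ENSMUSG00000028211, chr4:11156431-11174379, + strand) encodes a stress protein that promotes p53-dependent death and autophagy. It was at 581 and 433 normalised counts in parental A and B, 664 and 528 in B04 and 860 and 705 in B64. Both B64 libraries were above the other 4, and replicates differed more than for the other genes. In B64 it rose 1.54-fold (log2 0.63, SE 0.16, DESeq2 adjusted p = 0.00169). The call was lost without parental replicate B (0.43, DESeq2 adjusted p = 0.164), without B64 replicate A (0.48, adjusted p = 0.205) and with fragment class as a block (0.96, adjusted p = 0.0627). It passed in 11 of 16 alternatives (adjusted p from 0.000245 to 0.205). In B04 the log2 fold change was 0.24 (95% interval -0.09 to 0.56, DESeq2 adjusted p = 0.346), and between the clones it was 0.39 (0.07 to 0.71, adjusted p = 0.0642). Within B04, the short-fragment library was at -0.33 against the long-fragment one on the log2 scale, where the other 8 genes were between -0.07 and 0.03.

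Eda2r (ENSMUSG00000034457, chrX:97333840-97377216, - strand), a receptor of the tumour necrosis factor family, was at 831 and 672 normalised counts in parental A and B, 706 and 708 in B04 and 844 and 777 in B64. The parental libraries differed from each other by more than the clones differed from them on average. No comparison passed, with log2 fold changes of -0.09 in B04 (95% interval -0.34 to 0.16, DESeq2 adjusted p = 0.718) and 0.11 in B64 (adjusted p = 0.686).

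Phlda3 (ENSMUSG00000041801, chr1:135766119-135769136, + strand) encodes a small protein that blocks membrane binding of the survival kinase Akt. It was at 3001 and 3210 normalised counts in parental A and B, 3436 and 3323 in B04 and 3530 and 3555 in B64. The 3 lines did not overlap, but the steps between them were small. In B64 it rose 1.14-fold (log2 0.19, SE 0.07, DESeq2 adjusted p = 0.038). This call passed in 2 of 16 alternatives (adjusted p from 0.0233 to 0.727) and was lost on leaving out any 1 library, where the log2 fold change stayed at 0.14 to 0.24, with DESeq2 adjusted p-values of 0.452 and 0.0615 without parental replicates A and B, 0.0795 and 0.0831 without B04 replicates A and B, and 0.266 and 0.3 without B64 replicates A and B. In B04 the log2 fold change was 0.12 (DESeq2 adjusted p = 0.207).

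With fragment class as a block, 1 of the 9 genes, Cdkn1a, passed in B64 against the parental line, where 2.64% of all 12855 genes tested passed. The count was 2 in B04, against 12.8%, and 2 between the clones, against 13.4%. The block estimates the class effect from the B04 libraries, since no other line had both classes.

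The chromosome neighbours of each gene were set beside it, as the 10 nearest expressed genes on either side. The 20 neighbours of Mdm2 had a median log2 fold change of 0.04 in B04 and the lowest was -0.55, so 0 of 20 lay below Mdm2. The neighbours of Bbc3 had a median of 0.10 in B04 and 0.00 in B64, with 20 and 19 of 20 below Bbc3. For Cdkn1a, 2 of 20 lay below it in B04 and 14 of 20 in B64, where the neighbours had medians of 0.14 and 0.03. For Trp53inp1 in B64, 18 of 20 neighbours lay below. In B64 the median of the neighbours of Bax, 0.39, was above the 0.10 of Bax itself.

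**Figure D3:**
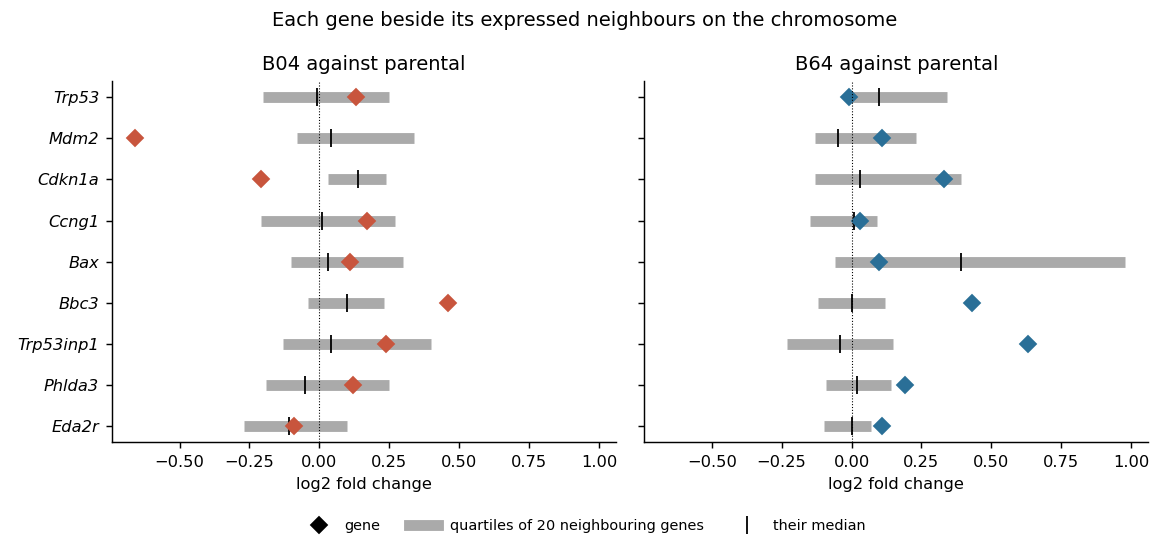
Log2 fold change (horizontal axis) of each of the 9 genes (diamonds) in B04 and in B64 against the parental line, over a grey bar from the lower to the upper quartile of its 20 nearest expressed neighbours on the chromosome, with a tick at their median. Mdm2 in B04, at -0.66, lies left of its bar, which runs from -0.08 to 0.34.

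By likeness over the 6 libraries, the genes nearest to Trp53 among 9602 protein-coding genes were Hpcal1, Myl12b and Prpf19, with Pearson's r of 0.9996, 0.9987 and 0.9984 on log2 counts. All 3 shared the high B04 libraries, Hpcal1 for instance with 347 and 393 normalised counts in B04 against 209 to 237 elsewhere. Nearest to Cdkn1a were Rab3gap1, Hebp1 and Il34 (r = 0.9982, 0.9977 and 0.9972), all lowest in B04 and highest in B64. With 6 libraries in 3 pairs and this many genes, the values are given as a description.

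A further 32 p53 targets were described from the same fit. In B04, 29 were tested and 12 passed, 5 higher and 7 lower, against the same 24.1% of all genes. The 7 lower calls numbered 6 or 7 on leaving out any 1 library, whereas the 5 higher ones came to 1 without B04 replicate A, 2 without parental replicate B and 3 without parental replicate A or B04 replicate B. In B64, 29 were tested and 7 passed, 5 higher and 2 lower, where 8.87% of all genes were higher and 7.45% lower. Here the split was 5 higher and 6 lower with edgeR, 2 and 2 with the length offset, 1 and 0 with fragment class as a block, and 2 or 3 higher and 1 lower on leaving out any 1 library. Between the clones, 28 were tested, and 6 were higher and 5 lower in B64, where 13.1% of all genes were higher and 11.1% lower. The median of the tested targets was 0.00 in B04 and -0.07 in B64.

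Among 12 targets for cell cycle and growth, 11 were tested, of which 1 rose and 5 fell in B04, and 5 rose and 0 fell in B64. Over all genes, 11.2% were higher and 12.9% lower in B04, and 8.87% and 7.45% in B64. In B04 their median was -0.27 and 3 of 11 lay above 0, and between the clones the median was 0.37 and 10 of 11 lay above 0. Plk3, a stress-responsive kinase, was at 1161 and 1287 normalised counts in parental A and B, 711 and 701 in B04 and 1758 and 1749 in B64. Its lines did not overlap, and their order was that of Mdm2 and Cdkn1a. Plk3 fell by 0.79 on the log2 scale in B04 (DESeq2 adjusted p = 9.26e-14) and rose in B64 by 0.52 (adjusted p = 1.74e-06, and 0.54 with an adjusted p of 0.18 with fragment class as a block). Plk2, a related kinase, fell by 0.36 in B04 (DESeq2 adjusted p = 9.61e-08). In B64 its log2 fold change was 0.17 (DESeq2 adjusted p = 0.0278), a call that was lost on leaving out any 1 library, with values of 0.15 to 0.19.

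Zmat3, an RNA-binding growth suppressor, fell by 0.47 in B04 (DESeq2 adjusted p = 5.73e-08) and did not pass in B64 (-0.17, adjusted p = 0.135). Ddit4, an inhibitor of the growth kinase mTORC1, rose in both clones, by 0.41 in B04 (DESeq2 adjusted p = 1.76e-05) and 0.78 in B64 (adjusted p = 5.12e-18). The other genes behind these counts fall outside the naming rule and were picked after their values were seen. They are Gadd45a (-0.30) and Sesn2 (-0.27) in B04 and Ninj1 (0.36) and Btg2 (0.55) in B64. Sesn2 did not pass without parental replicate B (-0.25, DESeq2 adjusted p = 0.0766) or B04 replicate B (-0.24, adjusted p = 0.115). Ninj1 did not pass without parental replicate A (0.28, DESeq2 adjusted p = 0.18) or B64 replicate B (0.28, adjusted p = 0.206), and Btg2 did not pass without any 1 of the 6 libraries (0.46 to 0.64). Rprm had 0 counts in every library.

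Among 12 targets for cell death, 10 were tested in B04 with 2 higher and 2 lower, and 10 in B64 with 0 higher and 1 lower. Over all genes, 24.1% were called in B04 and 16.3% in B64. Dram1, an autophagy regulator, fell by 3.10 on the log2 scale in B04 (DESeq2 adjusted p = 7.69e-05) from low expected counts of 65 and 50 in the parental libraries to 3 and 10. Its counts in B64, 13 and 21, did not pass (-1.56, DESeq2 adjusted p = 0.062). Tnfrsf10b, the mouse TRAIL death receptor, fell by 0.48 in B04 (DESeq2 adjusted p = 0.000109). Bid, which links death receptors to mitochondria, was at 0.04 in B04 and fell by 0.44 in B64 (DESeq2 adjusted p = 0.000128, and -0.37 with an adjusted p of 0.608 with fragment class as a block).

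Pidd1, a scaffold for caspase-2, rose in B04 by 0.78 (DESeq2 adjusted p = 0.00245). Its call was lost without parental replicate B (0.70, DESeq2 adjusted p = 0.0868) and without B04 replicate A (0.57, adjusted p = 0.22). Siva1, named after its value was seen to complete the count, was at 0.33 in B04 (DESeq2 adjusted p = 0.014) and did not pass without any 1 of the parental or B04 libraries (0.27 to 0.38). Pmaip1, which encodes Noxa, and Perp had at most 1 count in every library.

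Among 8 targets for DNA repair and nucleotide supply, all 8 were tested, and 2 rose in B04 while 1 fell in B64, near the 24.1% and 16.3% called over all genes. Polh, a polymerase that copies past lesions, rose in B04 by 0.47 (DESeq2 adjusted p = 0.000647), but not without B04 replicate A (0.43, adjusted p = 0.062). Gls2, a mitochondrial glutaminase, was at 97 and 82 normalised counts in parental A and B, 163 and 167 in B04 and 50 and 65 in B64. Its lines did not overlap, with B04 highest and B64 lowest, the reverse of Mdm2. Gls2 rose in B04 by 0.88 (DESeq2 adjusted p = 0.013), a call lost on leaving out any 1 of the parental or B04 libraries (DESeq2 adjusted p = 0.0841 to 0.198), and did not pass in B64 (-0.64, adjusted p = 0.164). The direct difference between the clones, -1.52, passed in all 16 alternatives (DESeq2 adjusted p = 7.88e-06). Ercc5, a nuclease of excision repair, was at -0.35 in B64 (DESeq2 adjusted p = 0.0428), and leaving out any 1 library lost this call (-0.42 to -0.28).

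**Figure D4:**
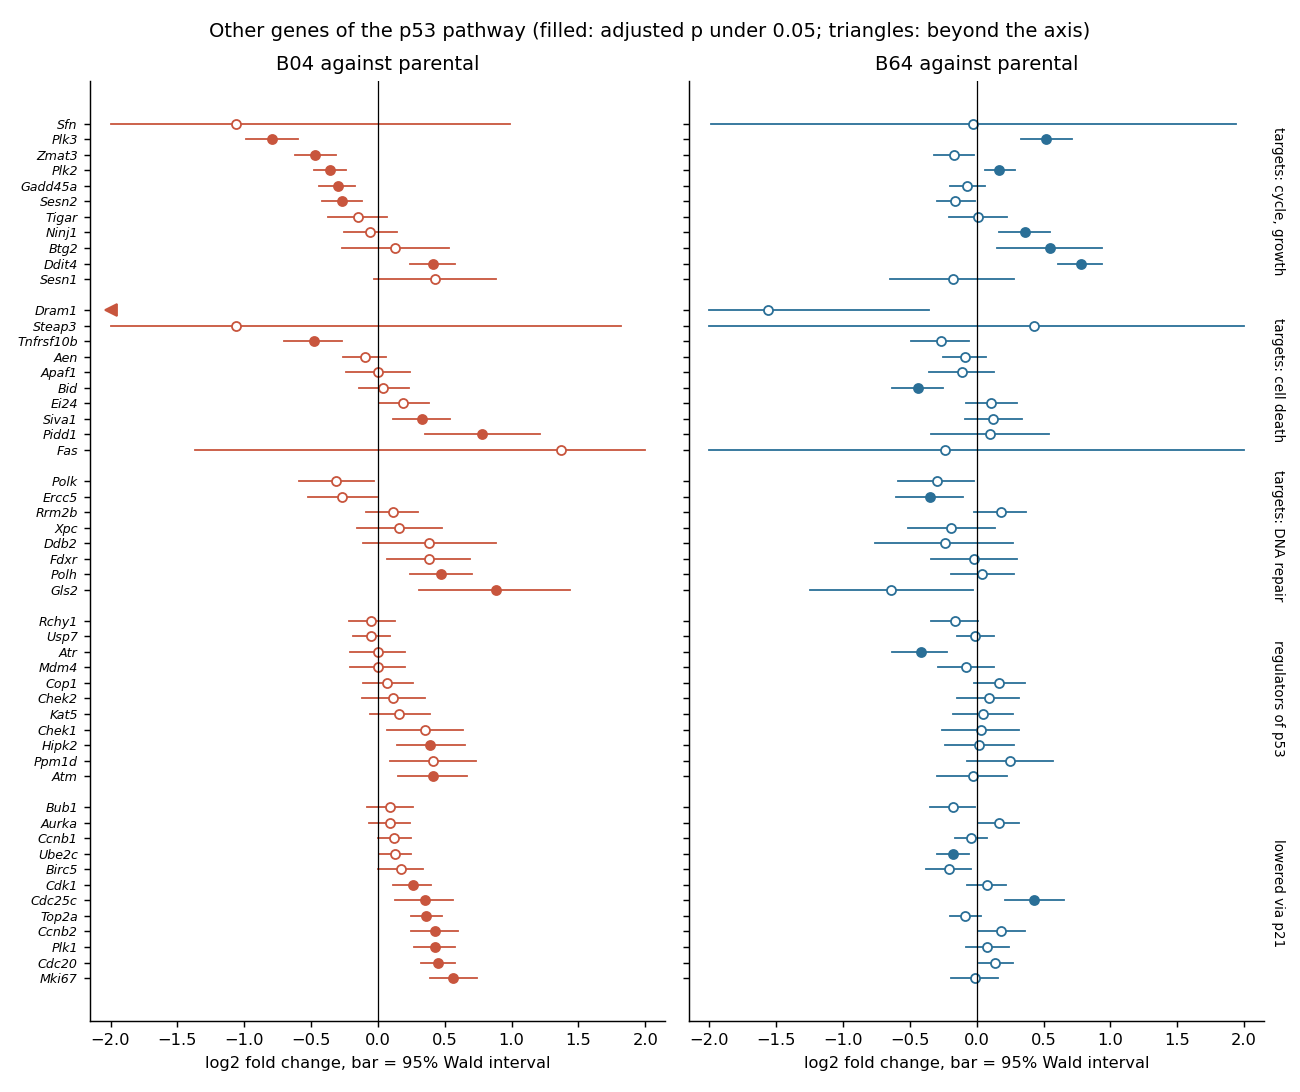
Log2 fold change (horizontal axis) of the tested genes of the target lists, the regulators and the genes lowered through p21 (rows), in B04 and in B64 against the parental line, with bars for the 95% Wald interval, cut at the ends of the axis, and filled points for an adjusted p under 0.05 with DESeq2. The triangle is Dram1, at -3.10 in B04. Of the 11 cell cycle and growth targets, 3 lie above 0 in B04, and of the 12 genes listed as lowered through p21 all 12 do.

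Regulators that act on p53 were read from the same fit. Of 12, 11 were tested, with 2 higher in B04, 1 lower in B64 and 3 lower in B64 than in B04. Over all genes 24.1%, 16.3% and 24.3% were called in these comparisons. Cdkn2a, the gene of the Mdm2 inhibitor ARF, had 2 to 5 expected counts in every library and was not tested. Atm, the kinase that signals DNA breaks, was at 0.41 in B04 (DESeq2 adjusted p = 0.0107) and -0.03 in B64. The call in B04 was lost without parental replicate B (0.30, DESeq2 adjusted p = 0.258) and without B04 replicate A (0.30, adjusted p = 0.312). Hipk2, a kinase for p53, was at 0.39 in B04 (DESeq2 adjusted p = 0.015), which was lost on leaving out any 1 of the parental or B04 libraries (0.33 to 0.46). Atr, the kinase that signals stalled replication, was at 0.00 in B04 and fell by 0.42 in B64 (DESeq2 adjusted p = 0.000914). Atr did not pass without parental replicate A (-0.35, DESeq2 adjusted p = 0.12) or B64 replicate B (-0.42, adjusted p = 0.0562), nor with fragment class as a block (-0.38, adjusted p = 0.695).

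Of the p53 family, Trp73 had at most 1 count in every library. Trp63, the gene of p63, had 4 and 1 expected counts in parental A and B, 30 and 16 in B04 and 1 and 1 in B64. Both B04 libraries stood above the other 4, all at low counts. With depth taken into account, the summed 46 counts of B04 were 9.37 times the 5 of the parental line (95% counting interval 3.74 to 30.2) and 20.3 times the 2 of B64 (5.31 to 173). The interval covers counting error only. The call in B04 (DESeq2 adjusted p = 0.0244) was lost without parental replicate A (log2 4.54, adjusted p = 0.0945), parental replicate B (2.52, adjusted p = 0.24) or B04 replicate B (3.53, adjusted p = 0.14).

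Active p53 lowers many genes of mitosis through p21, which acts by way of the DREAM repressor complex at their promoters. Of 12 such genes, all 12 had a log2 fold change above 0 in B04, with a median of 0.30, and 7 passed, against 11.2% of all genes higher. In B64 their median was 0.03, with 1 higher and 1 lower, and 9 of the 12 were lower in B64 than in B04, against 11.1% of all genes. The 2 were Cdc25c and Ube2c, named after their values were seen. Cdc25c was at 0.43 in B64 (DESeq2 adjusted p = 0.00141) and did not pass without parental replicate B (0.37, adjusted p = 0.0917) or B64 replicate B (0.40, adjusted p = 0.105). Ube2c was at -0.18 (DESeq2 adjusted p = 0.0317) and did not pass without 5 of the 6 libraries in turn, B04 replicate B being the exception (-0.22 to -0.14).

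Mki67, the proliferation marker, rose in B04 by 0.56 (DESeq2 adjusted p = 6.37e-09) from 3168 and 2775 normalised counts to 4765 and 4010. Top2a, which untangles chromosomes, rose by 0.36 (DESeq2 adjusted p = 1.86e-08), Cdc20, an activator of anaphase, by 0.45 (adjusted p = 2.75e-10) and the mitotic kinase Plk1 by 0.43 (adjusted p = 1.57e-06). These 4 rises passed in all 16 alternatives. In the same 2 libraries Cdkn1a was lower (log2 -0.21), a fall that passed in 11 of 16 alternatives and was -0.09 with both limma fits on TPM. In B64 Cdkn1a was higher (log2 0.33), while the 12 genes of the list had a median of 0.03 there, with 6 of 12 above 0. The part of Cdkn1a in the levels of the 12 genes was not tested. The growth rate of the lines was not measured here, and its part in these levels was not tested. The study had already reported an enrichment of cell cycle genes among those higher in B04, from RNA-seq and chromatin accessibility together.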

How the data were processed

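Genes were quantified by RNA-seq in 6 libraries of CT26 lines, 2 a group, grouped by their titles. The authors aligned paired reads to mm10 with STAR and quantified them with RSEM, per the study's methods and processing notes. The RSEM version and annotation release are not given in the sources used here. The deposited tables hold an expected count per gene, in which reads that match several genes are divided among them. They also hold TPM, scaled by the authors with RSEM for effective length and library total. The difference between RSEM's length and effective length columns served as the measure of fragment length, with a class limit of 260 bases. FPKM was not used.

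Of 53801 identifiers, 53706 (99.8%) matched a symbol in GENCODE M21 (GRCm38), the source of gene coordinates, which count from 1. Expected counts were rounded and tested with DESeq2 1.42.0 (R 4.3.3), the tool of the study, with all 6 libraries in one fit and group as the only term. P-values were adjusted by Benjamini-Hochberg over all genes tested, and genes were called under 0.05. Library totals differed little, and replicates were not copies, with a chi-square per degree of freedom of 5.33 to 7.17 between them. Intervals are 95% Wald intervals. A gene at 3 counts or fewer in every library was taken as at the floor, which covers counting error only.

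The 9 genes, the other lists and the tests were chosen with earlier results of these data known. All 9 are named. Of each other list, up to 4 genes called in any comparison with the smallest adjusted p are named, and any gene at the floor. Genes outside this rule are marked as such. Alternatives were edgeR 4.0.16 (quasi-likelihood, TMM), TMM size factors in DESeq2, no low-count filter, a mean count of at least 10, the libraries of a comparison only, the replicate letter as a block, fragment class as a block, effective lengths as an offset, limma 3.58.1 on log2(TPM + 1) and log2(TPM + 0.1) for genes with a mean TPM of at least 0.5, and each library left out, 16 in all. For genes outside the 9 they were added after seeing the data. Promoter sequences are from RefSeq (GRCm38.p6).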

Additional observations from a re-analysis of the deposited data

Results flagged for a closer look

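The genes below passed in the direct test of B64 against B04 (DESeq2, adjusted p under 0.05), so the 2 clones departed from the parental line to a different extent. All values are log2 differences, B64 minus B04. Of the 9 genes, Cdkn1a differed by 0.54 and Mdm2 by 0.78, both higher in B64. Among other targets, Plk3 (1.31), Plk2 (0.53), Ninj1 (0.42), Ddit4 (0.37), Zmat3 (0.30) and Gadd45a (0.23) were higher in B64. Lower in B64 were the targets Gls2 (-1.52), Pidd1 (-0.68), Sesn1 (-0.61, named after its value was seen), Bid (-0.48) and Polh (-0.43), the kinases Atm (-0.45), Atr (-0.42) and Hipk2 (-0.37), and Trp63 (-4.32), which rests on 46 counts in B04 and 2 in B64.

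Of the 12 genes listed as lowered through p21, 9 were lower in B64 than in B04, against 11.1% of all genes. Among them were the named Mki67 (-0.58), Top2a (-0.45), Plk1 (-0.34), Ube2c (-0.31) and Cdc20 (-0.30). Against the parental line, the median of the 12 in B64 was 0.03, with 1 higher and 1 lower. Several calls were lost without B04 replicate A, those of Ddit4 (0.26, DESeq2 adjusted p = 0.0568), Pidd1 (-0.47, adjusted p = 0.37), Polh (-0.39, adjusted p = 0.112), Atm (-0.33, adjusted p = 0.259) and Gadd45a (0.22, adjusted p = 0.0823). Without B64 replicate A, Pidd1 (-0.70, DESeq2 adjusted p = 0.113), Polh (-0.33, adjusted p = 0.173), Gadd45a (0.25, adjusted p = 0.0516), Zmat3 (0.29, adjusted p = 0.0528) and Plk1 (-0.28, adjusted p = 0.054) were lost. Without B64 replicate B, Pidd1 (-0.66, DESeq2 adjusted p = 0.146), Atm (-0.34, adjusted p = 0.221), Gadd45a (0.22, adjusted p = 0.107) and Ninj1 (0.34, adjusted p = 0.0631) were lost. Zmat3 was also lost without B04 replicate B (0.22, DESeq2 adjusted p = 0.109). Hipk2 was lost without 5 of the 6 libraries in turn, parental replicate B being the exception (-0.43 to -0.31). Sesn1 was lost without any 1 of the 6 libraries (-0.69 to -0.51). The other calls of genes named in this paragraph and the previous one held on leaving out each library for which the fit gave a value. Of these, the call of Atr passed in 13 of all 16 alternatives. The unnamed genes among the 9 were not checked in this way. Groups of 2 libraries are too small to test single libraries as outlying.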

How the results depend on the processing

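The log2 fold changes of the 9 genes were compared over 16 alternatives and after subtracting the median of all tested genes. The subtraction gives no p-value and was judged by direction alone. In all, 414 values kept their direction and, where tested, their side of the threshold, 27 no longer passed, 6 newly passed and 12 were reversals. All reversals were of differences that had not passed. In B64 against the parental line they were Trp53 (0.01 with both limma fits, and -0.03 to 0.00 on leaving out a library), Ccng1 (-0.03 to 0.10 on leaving out a library) and Eda2r (-0.04 to 0.27). In B64 against B04 they were Bax (-0.04 to 0.03 on leaving out a library) and Bbc3 (0.05 with the length offset and 0.01 with both limma fits). Eda2r in B04 was at -0.24 to 0.07 on leaving out a library, and parental replicate A decided its sign.

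Of the 9 genes, 4 were called in B64, but 1 with fragment class as a block, 2 with each limma fit and 2 to 3 on leaving out a library. For other targets in B64, the 7 calls became 11 with edgeR, 4 with the length offset, 4 with each limma fit, 1 with fragment class as a block and 3 to 4 on leaving out a library. Between the clones, the 11 calls became 6 with fragment class as a block and 6 to 10 on leaving out a library. Over all genes, the calls in B64 against the parental line also moved with the setting, from 2157 at the main one. They were 3038 with edgeR, 1671 with the length offset, 1237 and 1220 with the limma fits and 340 with fragment class as a block. Between the clones, the calls over all genes went from 3118 to 1625 with fragment class as a block. Where 1 library was left out, the lone library of its line was assumed to vary like the others. Limma on log2(TPM + 1) moved the share of higher calls over all genes from 46.4% to 67.4% in B04 and from 54.3% to 68.3% in B64. The causes were not tested.

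Replicate letters did not pair the libraries, since the deviations of same-lettered libraries correlated at 0.11, 0.01 and -0.05 over 11996 genes. With the letter as a replicate block, 2655, 1716 and 2638 genes were called in B04, B64 and B64 against B04. The block gave 4 calls among other targets in B64 and an adjusted p of 0.0754 for Phlda3 in B64 (DESeq2).

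With 2 libraries a line, a difference that did not pass is bounded only by its interval, and counts as low as those of Trp63 or Dram1 limit any estimate.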
